A study of Mus musculus with 28 samples.

Results

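The genes described here encode 9 enzymes or enzyme subunits of the tricarboxylic acid (TCA) cycle, Cs, Idh3a, Idh3b, Idh3g, Ogdh, Suclg1, Sucla2, Fh1 and Mdh2. They are the rows of a liver count table whose Ensembl identifier carries 1 of these symbols, 9 of 49585 features, and all 9 had enough reads to be tested. Liver RNA was sequenced from 28 C57BL/6JOlaHsd mice, 7 for each combination of sex (male or female) and genotype (WT or SIRT6-tg). The mice were 5 to 7 months old and fasted for 4 h, and WT animals were littermates without the transgene. SIRT6-tg mice overexpress the deacylase SIRT6 throughout the body and came from 1 transgenic line, so effects of the line cannot be told apart from those of SIRT6. The comparisons ask whether SIRT6 overexpression goes with other transcript levels of these enzymes in the liver, and whether it does so in both sexes.

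Library totals lay between 18758863 and 35393069 counts, and the members had between 631 counts (Idh3a in a male SIRT6-tg mouse) and 9720 counts (Fh1 in a male WT mouse) per library. Sirt6 itself, the gene for SIRT6, averaged 2.73 ± 0.511 CPM (SD, n = 7) in WT males and 281 ± 55.2 CPM (SD, n = 7) in transgenic males. CPM is the count relative to the library total, here scaled by TMM factors, which adjust for differences in library composition. Female WT mice averaged 2.88 ± 1.55 CPM of Sirt6 (SD, n = 7) and transgenic females 30.2 ± 12.5 CPM (SD, n = 7), with endogenous and transgene reads counted together. The genotype labels therefore held in both sexes, and the ranges of the SIRT6-tg sexes, 198 to 358 CPM in males and 16.4 to 50.2 CPM in females, did not overlap. RNAs of secreted hepatocyte proteins such as albumin were abundant in every group, and T cell, macrophage and stellate cell markers were detected as well.

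The TCA cycle oxidises the acetyl group of acetyl-CoA in the mitochondrial matrix and passes the electrons as NADH and reduced flavin to the respiratory chain. In the liver it also supplies carbon for gluconeogenesis, amino acid and fatty acid synthesis. Citrate synthase (Cs) joins acetyl-CoA to oxaloacetate, and the NAD-dependent isocitrate dehydrogenase, built from a catalytic alpha subunit (Idh3a) and the beta and gamma subunits (Idh3b, Idh3g), then makes 2-oxoglutarate. Ogdh is the E1 component of the 2-oxoglutarate dehydrogenase complex. Succinyl-CoA ligase pairs the alpha subunit Suclg1 with a beta subunit, Sucla2 for the ADP-forming or Suclg2 for the GDP-forming enzyme. Fumarate hydratase (Fh1) and mitochondrial malate dehydrogenase (Mdh2) close the cycle back to oxaloacetate.

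On GRCm38 (Gencode vM21) the members lie on 9 different chromosomes. At the entry of the cycle are Cs (ENSMUSG00000005683.7) at chr10:128337734-128362479, Idh3a (ENSMUSG00000032279.11) at chr9:54586334-54604661, Idh3b (ENSMUSG00000027406.12) at chr2:130279309-130284547 and Idh3g (ENSMUSG00000002010.17) at chrX:73778963-73786897. The middle steps are encoded by Ogdh (ENSMUSG00000020456.17) at chr11:6291633-6356642, Suclg1 (ENSMUSG00000052738.14) at chr6:73248382-73276911 and Sucla2 (ENSMUSG00000022110.13) at chr14:73525319-73596142, and the last by Fh1 (ENSMUSG00000026526.14) at chr1:175600374-175625635 and Mdh2 (ENSMUSG00000019179.10) at chr5:135778480-135790398. Idh3b, Idh3g and Fh1 are on the minus strand and the others on the plus strand. Idh3b shares 5 exonic bases with Nop56 on the opposite strand, and the strand setting of the counting is not given in the sources used here. Cs is 91.9% identical to its copy Csl over 1522 bases, but Csl had at most 9 counts in a library and in all 0.0524% as many as Cs.

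The promoters shown are those of the 5 members that rose in male SIRT6-tg mice with TMM scaling, a choice by that test alone. Each run gives 150 bases before and 10 bases from the RefSeq start site onward on GRCm38.p6, 5′ to 3′ on the gene's strand. Capitals mark matches, on either strand, to an ETS core (CCGGAAG), a YY1 core (AAGATGGC) or an SP1 GC box (GGGCGG).
Idh3b: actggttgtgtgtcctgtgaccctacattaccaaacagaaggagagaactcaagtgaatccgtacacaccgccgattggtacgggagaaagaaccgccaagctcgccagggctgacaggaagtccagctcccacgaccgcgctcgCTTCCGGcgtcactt
Idh3g: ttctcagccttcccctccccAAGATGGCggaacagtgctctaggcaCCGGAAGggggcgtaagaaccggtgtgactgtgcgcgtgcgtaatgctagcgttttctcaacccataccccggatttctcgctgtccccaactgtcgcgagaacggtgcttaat
Suclg1: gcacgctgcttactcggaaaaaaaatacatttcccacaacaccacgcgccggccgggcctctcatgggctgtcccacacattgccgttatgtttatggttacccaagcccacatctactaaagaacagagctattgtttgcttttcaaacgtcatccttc
Sucla2: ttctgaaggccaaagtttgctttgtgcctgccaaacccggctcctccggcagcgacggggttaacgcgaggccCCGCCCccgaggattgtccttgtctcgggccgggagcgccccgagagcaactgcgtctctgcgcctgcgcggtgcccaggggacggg
Mdh2: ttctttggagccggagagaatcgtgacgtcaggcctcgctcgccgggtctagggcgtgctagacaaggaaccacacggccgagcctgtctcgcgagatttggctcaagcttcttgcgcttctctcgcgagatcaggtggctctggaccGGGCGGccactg

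They come from chr2:130284442-130284601 (minus strand), chrX:73786888-73787047 (minus strand), chr6:73248355-73248514, chr14:73552636-73552795 and chr5:135778499-135778658 (plus strand). The RefSeq start of Sucla2 lies 27467 bases inside the gene as annotated in Gencode. RefSeq windows of 300 bases were matched for 8 of the 9 members, the exception being Idh3a. In these windows the ETS core occurred in Idh3b, starting 5 bases before the start site, and in Idh3g, 104 bases before it, against 14.4% of the windows of all genes tested. The YY1 core occurred only in Idh3g among the members (3.66% of windows of tested genes), 130 bases before the start and without overlap with the ETS core. The SP1 GC box occurred in Cs, Ogdh, Sucla2, Fh1 and Mdh2 (55.2% of windows). Ogdh, with 6 annotated windows, was the only member to hold an NRF1 core (GCATGCGC, 4.24% of windows) or a nuclear receptor core (AAGGTCA, 3.69%), and no member window held TATAAA (8.62%). The motifs were searched on both strands, and a match describes the sequence only.

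Levels between genes were compared as CPM per kilobase of exon. Fh1 was the highest member in all 4 groups and Idh3a the lowest, and their means differed 10.01-fold in male WT, 11.2-fold in male SIRT6-tg, 9.57-fold in female WT and 6.68-fold in female SIRT6-tg mice. In male WT mice Fh1 was at 71.2 ± 11.7 CPM per kb (SD, n = 7), Suclg1 at 47.1 ± 5.79, Mdh2 at 46.8 ± 3.38 and Idh3b at 42.6 ± 2.39. Sucla2 followed at 35.99 ± 3.27, Ogdh at 32.0 ± 5.32, Cs at 20.4 ± 2.35, Idh3g at 18.7 ± 0.914 and Idh3a at 7.11 ± 0.792. In male SIRT6-tg mice the order began with Fh1 at 91.7 ± 14.7, Suclg1 at 66.5 ± 11.9 and Idh3b at 61.7 ± 5.56 CPM per kb and ended with Cs at 22.96 ± 1.17 and Idh3a at 8.19 ± 0.973. Female SIRT6-tg mice had Fh1 at 62.8 ± 9.9, Suclg1 at 50.9 ± 12.1, Idh3b at 47.3 ± 5.82, Cs at 20.8 ± 1.55 and Idh3a at 9.4 ± 1.06. Neighbours in these orders had overlapping ranges over the 7 mice, except that Idh3a lay below all other members in every group, Ogdh above Idh3g in female WT mice, and Sucla2 above Ogdh and Ogdh above Idh3g in male SIRT6-tg mice. The 3 subunits of NAD isocitrate dehydrogenase thus differed in level, with Idh3b at 42.6 and Idh3a at 7.11 CPM per kb in the same male WT libraries.

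In males, 5 of the 9 genes rose in SIRT6-tg mice and none fell with TMM scaling, against 1 with library size alone and 0 with a scaling to secreted hepatocyte genes, as detailed further on. They were Idh3b, Idh3g, Suclg1, Sucla2 and Mdh2, which were 22.6% to 44.8% higher than in WT. The other members, Cs, Idh3a, Ogdh and Fh1, did not pass the test, although each had a positive fold change. A gene was counted as changed at an adjusted p under 0.05 in edgeR's quasi-likelihood test over 21583 genes, and 9.68% of all genes tested were called higher in this comparison and 11% lower (20.7% in either direction). The members' median log2 fold change was 0.37, against 0.06 over all genes tested. The study showed Idh3b, Suclg1 and Sucla2 among TCA genes picked on these male libraries and measured Mdh2 by PCR, so the count is not independent evidence of a direction.

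**Figure D1:**
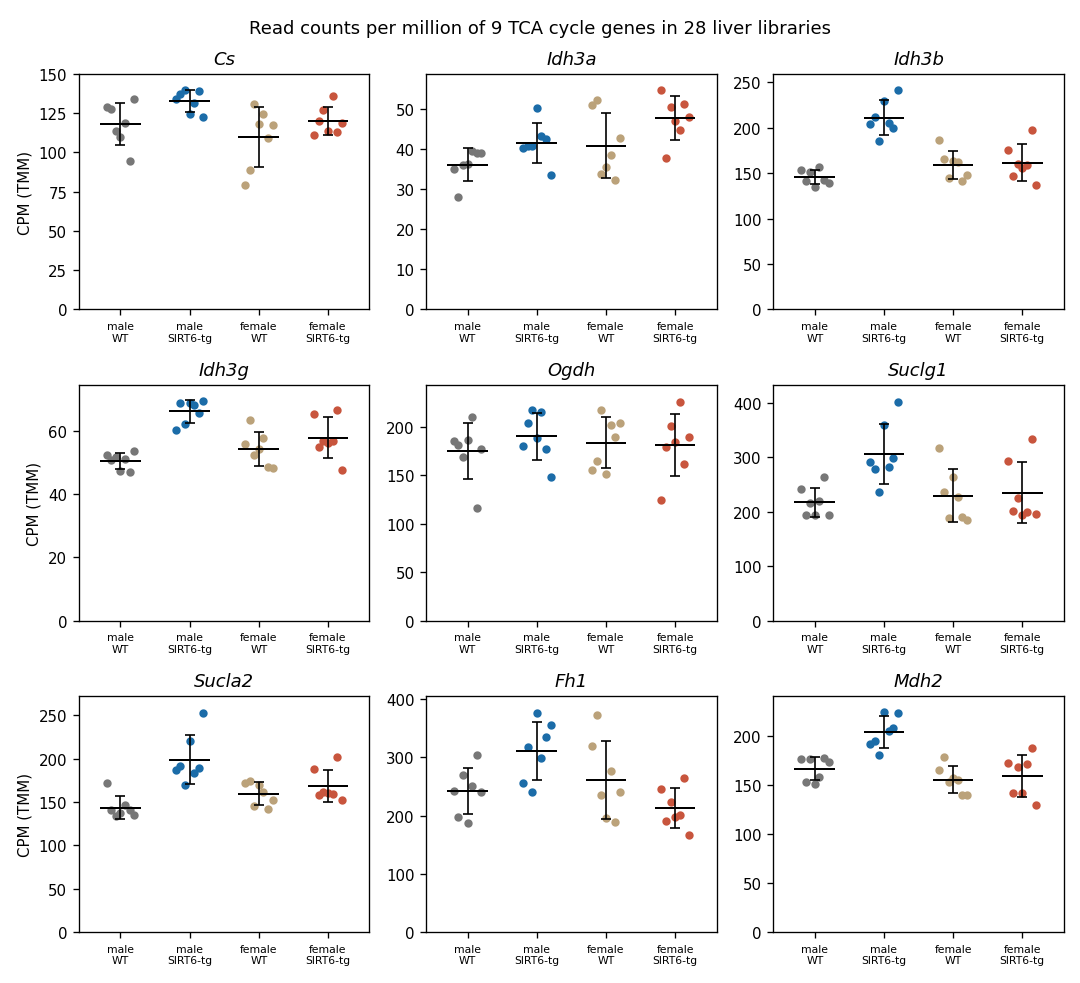
Each panel plots the CPM (TMM-scaled, linear axis from 0) of 1 TCA cycle gene in 28 liver libraries by group. Points are mice, the horizontal line is the mean and the error bar the SD of 7 mice. The male SIRT6-tg points lie above all male WT points for Idh3b, Idh3g and Mdh2, and overlap them for the other 6 genes.

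The largest male change among the members was that of Idh3b, the beta subunit of NAD isocitrate dehydrogenase. Male WT mice ranged from 135 to 157 CPM with a median of 143, and male SIRT6-tg mice from 185 to 242 with a median of 205. All 7 SIRT6-tg libraries lay above all 7 WT libraries. The log2 fold change was 0.53 (SE 0.0836, adjusted p = 1.85e-05, edgeR).

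Idh3g, the gamma subunit, ranged from 47.0 to 53.5 CPM (median 50.95) in male WT and from 60.2 to 69.3 CPM (median 68.1) in male SIRT6-tg mice, again without overlap. Its log2 fold change was 0.39 (SE 0.0776, adjusted p = 0.000435, edgeR). Idh3a, the catalytic subunit of the same enzyme, ranged from 27.9 to 39.6 CPM (median 36.3) in WT and from 33.5 to 50.1 CPM (median 40.7) in SIRT6-tg males. These ranges overlapped in 1 SIRT6-tg mouse only, and the log2 fold change of 0.20 (SE 0.11, adjusted p = 0.204, edgeR) did not pass the test.

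Both subunits of the ADP-forming succinyl-CoA ligase rose. The alpha subunit Suclg1 ranged from 194 to 263 CPM (median 216) in male WT and from 237 to 401 CPM (median 292) in male SIRT6-tg mice, with a log2 fold change of 0.50 (SE 0.139, adjusted p = 0.00993, edgeR). The beta subunit Sucla2 ranged from 133 to 171 CPM (median 140.5) and from 169 to 253 CPM (median 189), with a log2 fold change of 0.47 (SE 0.0903, adjusted p = 0.000266, edgeR). For each of them, 6 of 7 SIRT6-tg mice lay above all WT mice.

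Of the last enzymes of the cycle, Mdh2 rose and Fh1 did not pass the test. Mdh2 ranged from 151 to 177 CPM (median 174) in male WT and from 181 to 225 CPM (median 205) in male SIRT6-tg mice. The groups did not overlap, and the log2 fold change was 0.29 (SE 0.0853, adjusted p = 0.0132, edgeR). Fh1 ranged from 188 to 303 CPM (median 242) and from 241 to 375 CPM (median 317), with 4 of 7 SIRT6-tg mice above all WT mice and a log2 fold change of 0.37 (SE 0.14, adjusted p = 0.0623, edgeR). In all, 3 members had ranges that did not overlap with SIRT6-tg above WT, as did 2.6% of all genes tested.

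Cs and Ogdh, together with Idh3a, showed the smallest male fold changes among the members. Cs ranged from 94.6 to 134 CPM (median 119) in male WT and from 123 to 139.9 CPM (median 134) in male SIRT6-tg libraries, with a log2 fold change of 0.17 (95% confidence interval -0.03 to 0.36). Ogdh ranged from 116 to 210.1 CPM (median 181) and from 148 to 217 CPM (median 188), with a log2 fold change of 0.12 (95% confidence interval -0.13 to 0.37). Both intervals include 0 and also changes as large as that of Mdh2. The lowest Cs and Ogdh values of male WT mice came from 1 library, replicate 6, which also had the highest Suclg1, Fh1 and Mdh2 values of its group. Without it 6 members passed the test in males, Fh1 being the addition with a log2 fold change of 0.43 (adjusted p = 0.0302, edgeR). Fh1 was also called without male SIRT6-tg replicate 1, male SIRT6-tg replicate 3 or female WT replicate 2, and Mdh2 lost its call without male WT replicate 4 (log2 fold change 0.24, adjusted p = 0.0709, edgeR).

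The male calls depended on how the libraries were scaled. TMM factors were 1.06 to 1.17 in male WT and 0.821 to 0.993 in male SIRT6-tg libraries, so scaling moved the groups in opposite directions. The members together took 0.135% to 0.151% of all counts in male WT and 0.146% to 0.159% in male SIRT6-tg libraries. With RLE factors 5 members were called in males, with upper-quartile factors 4, with library size alone 1 (Idh3b), and with the libraries scaled to secreted hepatocyte genes none. The last 2 scalings moved the median log2 fold change of all genes from 0.06 to -0.22 and -0.25, and under them the fold changes of Cs, Idh3a and Ogdh were negative, while that of Mdh2 was negative only with the scaling to hepatocyte genes. Relative to the median of all genes, the members' median was higher by 0.31 with TMM, 0.29 with library size alone and 0.29 with the hepatocyte scaling. The median of the 15 secreted hepatocyte genes was higher by 0.318, 0.319 and 0.313 in the same order, so this excess was not particular to the members. All 9 members lay above the median of all genes under each of these 5 scalings. Of all genes called in males, 46.8% were higher with TMM and 4.89% with library size alone.

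**Figure D2:**
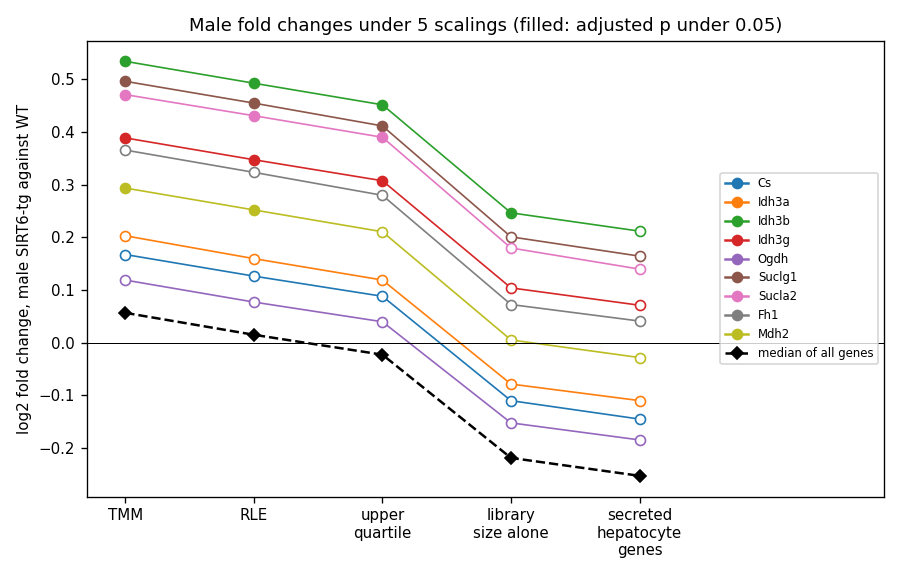
The vertical axis is the log2 fold change of male SIRT6-tg against WT mice, and the horizontal axis lists 5 ways of scaling the libraries. Each coloured line is 1 TCA cycle gene, filled points have an adjusted p under 0.05 (edgeR), and black diamonds are the median of all genes tested under that scaling. The lines fall in parallel with the diamonds, Idh3b stays the highest and Ogdh the lowest of the 9, and none of the points is filled at the right.

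Markers of other cells moved with the male comparison. All 10 T cell markers, all 10 macrophage markers and all 6 stellate cell markers were lower in male SIRT6-tg mice, as were 4 of 6 B cell and 1 of 6 endothelial markers and 0 of 5 cholangiocyte markers. The summed T cell markers ranged from 18.4 to 55.2 CPM in male WT and from 5.71 to 8.71 CPM in male SIRT6-tg mice, macrophage markers from 405 to 1272 and from 318 to 544 CPM, and stellate markers from 168 to 277 and from 87.0 to 111 CPM. B cell markers ranged from 12.0 to 19.4 and from 6.41 to 11.2 CPM, endothelial markers from 189 to 276 and from 181 to 241 CPM, and cholangiocyte markers from 32.4 to 88.0 and from 28.8 to 54.4 CPM. No marker of these lists was at 0 in all libraries. Of 15 secreted hepatocyte genes 8 rose and none fell with TMM, 3 rose with upper-quartile factors, and none rose and 1 fell with library size alone or with the hepatocyte scaling. Their TMM-scaled sum ranged from 128847 to 166840 CPM in WT and from 152624 to 208870 CPM in SIRT6-tg males. The part of these shifts in the TCA cycle results was not tested. In whole liver, fewer cells of a type and less RNA per cell cannot be told apart.

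In females none of the 9 genes was called, in a comparison in which 0.0278% of all genes tested were. At an unadjusted p under 0.05 edgeR counted 1 member and DESeq2 also 1, and 5.62% of all genes tested passed that mark in edgeR. The members' median log2 fold change was 0.03, against 0.00257 over all genes. Idh3b had a log2 fold change of 0.03 (95% confidence interval -0.14 to 0.2), with 142 to 186 CPM (median 162) in WT and 137 to 198 CPM (median 159) in SIRT6-tg females. Suclg1 ranged from 184 to 318 CPM (median 228) and from 195 to 334 CPM (median 202), with a log2 fold change of 0.03 and a wide interval of -0.25 to 0.31. The groups overlapped almost completely for both genes, and the interval of Suclg1 reached 0.31, against a log2 fold change of 0.50 in males.

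The member with the lowest unadjusted p in females was Fh1, in the direction opposite to that of males. It ranged from 188 to 373 CPM (median 239.7) in female WT and from 167 to 264 CPM (median 202) in female SIRT6-tg livers, and its log2 fold change was -0.29 (95% confidence interval -0.58 to -0.01, adjusted p = 0.856, edgeR). Female WT mice were the more variable group for Fh1, with an SD of 25.7% of the mean against 15.8% in SIRT6-tg mice. Idh3a had the largest positive value, a log2 fold change of 0.22 (95% confidence interval -0.000457 to 0.45, adjusted p = 0.889, edgeR), with 32.2 to 52.1 CPM (median 38.5) in WT and 37.8 to 54.5 CPM (median 48.0) in SIRT6-tg females. Idh3g ranged from 48.3 to 63.4 and from 47.6 to 66.6 CPM, Sucla2 from 141 to 175 and from 153 to 202 CPM, and Mdh2 from 139.9 to 179 and from 129 to 188 CPM. Cs ranged from 79.0 to 131 and from 111 to 136 CPM, and Ogdh from 151 to 217 and from 125 to 226 CPM. The female ranges of all 9 genes overlapped between the genotypes.

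**Figure D3:**
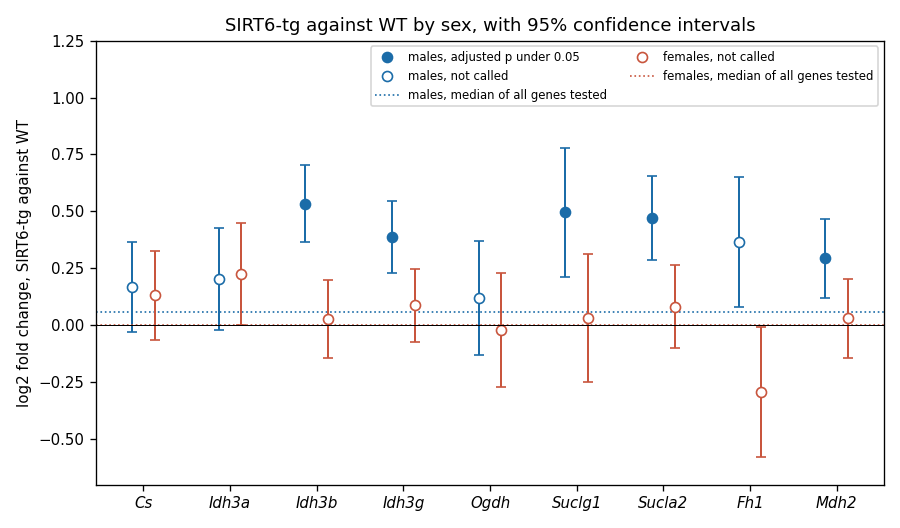
The log2 fold change of SIRT6-tg against WT is plotted for 9 TCA cycle genes in males (blue) and females (red). Bars are 95% confidence intervals from the edgeR fit of 7 mice a group, filled points have an adjusted p under 0.05 and dotted lines are the medians of all genes tested. The 5 filled points are all male, and Fh1 has its male and female values on opposite sides of 0.

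The difference between the sexes was tested as an interaction in the same fit. It was called for 2 members, Idh3b and Fh1, both with the higher log2 fold change in males, in a comparison in which 5.05% of all genes tested were called and 1.2% in that direction. The effect on Idh3b was larger in males by 0.51 on the log2 scale (SE 0.118, adjusted p = 0.00861, edgeR). For Fh1 the difference was 0.66 (SE 0.198, adjusted p = 0.0471, edgeR). It lay between opposite log2 fold changes, 0.37 in males and -0.29 in females, neither of them called. The Fh1 call was lost when any of 20 of the 28 libraries was left out, with adjusted p up to 0.113. It held without male WT replicate 6, male SIRT6-tg replicates 1 or 3, female WT replicates 4, 6 or 7, or female SIRT6-tg replicates 1 or 6. The Idh3b call held whichever of the 28 libraries was left out, with adjusted p up to 0.0237. Under library size alone or the hepatocyte scaling no member was called, and with RLE or upper-quartile factors only Idh3b was.

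For the other genes that rose in males the difference between the sexes did not pass the test. It was 0.39 for Sucla2 (adjusted p = 0.0732, edgeR), 0.30 for Idh3g (adjusted p = 0.112, edgeR), 0.46 for Suclg1 (adjusted p = 0.185, edgeR) and 0.26 for Mdh2 (adjusted p = 0.23, edgeR). Sucla2 passed without male WT replicate 1, male SIRT6-tg replicate 3 or female SIRT6-tg replicate 6, at a difference of 0.41 to 0.43. The 95% confidence intervals of these genes lay above 0, from 0.13 to 0.65 for Sucla2 and from 0.02 to 0.51 for Mdh2. For Cs and Idh3a the estimates were 0.04 and -0.02, with intervals of -0.24 to 0.31 and -0.34 to 0.3. Sex and the level of Sirt6 RNA, which was higher in every male than in any female SIRT6-tg mouse, cannot be told apart in this design.

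Between WT males and WT females none of the members was called by edgeR or DESeq2, while 12.4% of all genes tested were in edgeR. None reached an unadjusted p under 0.05 either, as 25.1% of all genes tested did. With library size alone Mdh2 was higher in WT males (log2 fold change 0.29, adjusted p = 0.00537, edgeR), as with the hepatocyte scaling (0.40, adjusted p = 0.00108, edgeR), and under both the other members except Cs turned from negative to positive values. These scalings moved the median of all genes from -0.00326 to 0.19 and 0.29. Of 21583 genes tested, 1436 were called higher in WT males with TMM, 3657 with library size alone and 5166 with the hepatocyte scaling. These were 53.8%, 86.8% and 93.6% of all genes called, in the same order. With TMM the members' log2 fold changes ran from -0.18 (Idh3a) to 0.11 (Cs). The ranges overlapped for each gene, for example 135 to 157 CPM in male and 142 to 186 CPM in female WT mice for Idh3b. Suclg2, which is no member but pairs with Suclg1 in the GDP-forming ligase, was lower in WT males, with a log2 fold change of -0.40 (adjusted p = 0.0039, edgeR). Among SIRT6-tg mice 4 members were higher in males, Idh3b, Suclg1, Fh1 and Mdh2, and none lower, where 12.9% of all genes tested were called higher and 23.1% in either direction. Fh1 ranged from 241 to 375 CPM in male and from 167 to 264 CPM in female SIRT6-tg mice, and 5 of 7 males lay above all females. Idh3b and Mdh2 each had 6 of 7 males above all females, Suclg1 had 2 of 7, and no member had ranges that did not overlap. The log2 differences were 0.55 for Fh1 (adjusted p = 0.00513, edgeR), 0.38 for Idh3b (adjusted p = 0.0012, edgeR), 0.38 for Suclg1 (adjusted p = 0.0429, edgeR) and 0.36 for Mdh2 (adjusted p = 0.00252, edgeR). Suclg1 lost its call without male WT replicates 4 or 7, male SIRT6-tg replicates 1, 4 or 7, or female SIRT6-tg replicates 2, 3, 4, 5 or 7, with adjusted p up to 0.104. Its call was also lost with RLE factors, upper-quartile factors, library size alone, the hepatocyte scaling or no filter, with adjusted p from 0.0539 to 0.118 and log2 differences from 0.24 to 0.39. With library size alone 3 members were higher and 1, Idh3a, lower in males. With the hepatocyte scaling 2 members, Idh3b and Fh1, were higher and Idh3a was lower, and Mdh2 lost its call (log2 difference 0.22, adjusted p = 0.0839, edgeR). Of all genes called between SIRT6-tg sexes, 55.9% were higher in males with TMM, 39.2% with upper-quartile factors and 38.2% with the hepatocyte scaling. Idh3a was at 41.5 ± 4.93 CPM in male and 47.7 ± 5.38 CPM in female SIRT6-tg mice (SD, n = 7), the only negative log2 difference among the members, -0.20 (adjusted p = 0.198, edgeR). These comparisons use the same mice as those of genotype and add no independent evidence on them.

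The ratio of 2 genes within a library does not depend on how libraries are scaled. Over 8 ratios and 4 comparisons, 32 tests in all, 2 passed Benjamini-Hochberg adjustment, both between the sexes of SIRT6-tg mice and both within NAD isocitrate dehydrogenase. Both set a gene with less exonic sequence (Idh3b 3422, Idh3g 2701 bases) over Idh3a (5072 bases). A part of exon length in these ratios, whose trend is given further on, was not tested. The log2 ratio of Idh3b to Idh3a (counts per kb) averaged 2.92 ± 0.233 (SD, n = 7) in male and 2.33 ± 0.16 (SD, n = 7) in female transgenic mice, and all 7 males lay above all females. The difference of 0.59 had p = 0.000583 in an exact two-sided permutation test, the smallest p that 3432 splits can give, and an adjusted p of 0.0186. The ratio of Idh3g to Idh3a was 1.59 ± 0.187 and 1.19 ± 0.172, with 6 of 7 males above all females (difference 0.40, exact permutation p = 0.00117, adjusted p = 0.0186).

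The highest Idh3b to Idh3a ratio, 3.42, was that of male SIRT6-tg replicate 7. Without this mouse the differences were 0.50 for Idh3b and 0.34 for Idh3g, and both still passed adjustment.

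Within males the Idh3b to Idh3a log2 ratio averaged 2.92 ± 0.233 with the transgene and 2.59 ± 0.177 without it, a difference of 0.33 that did not pass adjustment (exact permutation p = 0.00641, adjusted p = 0.0684). Within females it went the other way, 2.33 ± 0.16 with and 2.55 ± 0.2 without the transgene (difference -0.22, exact permutation p = 0.0484, adjusted p = 0.172). In WT mice the sexes differed by 0.04 (exact permutation p = 0.677). The Sucla2 to Suclg1 ratio differed by -0.02 between male genotypes (exact permutation p = 0.77), 2 subunits that both rose. The log2 ratio of Fh1 to Mdh2 differed by -0.29 between female SIRT6-tg and female WT mice, which did not pass adjustment (exact permutation p = 0.0227, adjusted p = 0.121).

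**Figure D4:**
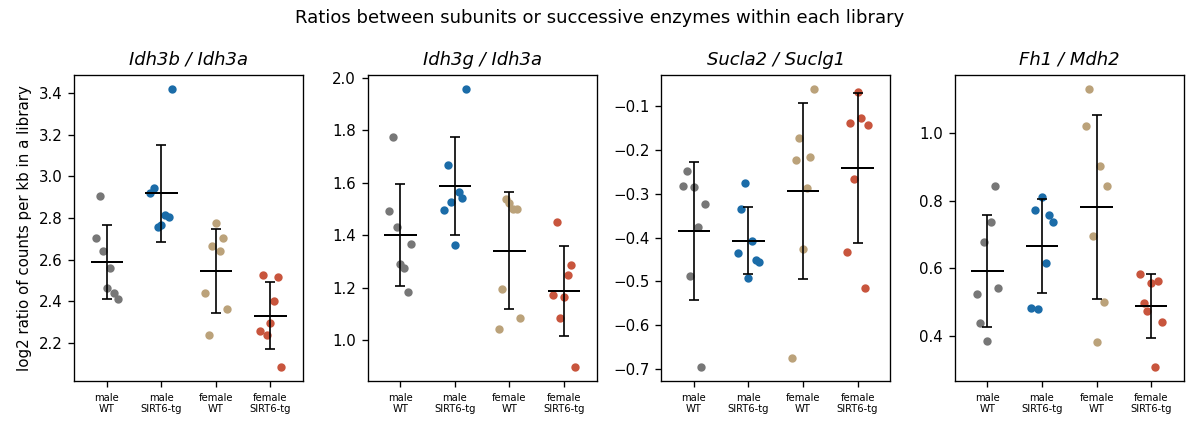
Each panel plots the log2 ratio of counts per kb of 2 genes within each of 28 libraries by group, with the mean and SD of 7 mice. In the Idh3b to Idh3a panel all 7 male SIRT6-tg points lie above all 7 female SIRT6-tg points, whereas the Sucla2 to Suclg1 panel shows overlap between all groups.

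The members also differed in how they varied among mice of the same group. After the mean of each group was removed, the Pearson correlations of log2 CPM over the 28 libraries ran from -0.72 (Ogdh with Suclg1) to 0.89 (Idh3b with Suclg1), with a median of 0.42 over 36 pairs, 22 of them positive. Idh3b, Idh3g, Suclg1, Sucla2, Fh1 and Mdh2 were positively correlated with each other, from 0.59 to 0.89. Cs and Ogdh correlated with each other at 0.64 and negatively with each of the other 7 genes. The points share libraries and their scaling factors, and the values are a description without a test.

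Cs and Ogdh act at separate steps of the cycle. The genes with the smallest male fold changes were Ogdh, Cs and Idh3a. Cs, Ogdh and Idh3a also had the longest exonic sequence of the members, 5779, 5456 and 5072 bases, against 2701 bases for Idh3g and 3422 for Idh3b. The slope of log2 level on log2 exon length, relative to each gene's mean, was taken over all genes tested. It ranged from -0.0971 to 0.04 (median 0.00155) in male WT and from -0.0973 to 0.0124 (median -0.0178) in male SIRT6-tg libraries. Over the 9 members alone the medians were 0.113 and -0.179. In female WT and SIRT6-tg libraries the medians were 0.0296 and 0.0426 over all genes, and 0.0394 and 0.158 over the members. A part of length in the fold changes was not tested. With each library's trend on exon length over all genes removed, an alternative chosen after seeing the data, 6 members were called in males and 2 for the difference between the sexes. Calls over all genes rose as well. Of 21583 genes, 2797 were called higher in males and 356 for the difference between the sexes, against 2090 and 260 without the removal. The slope over the members alone was not removed, and the ratios were not recomputed in this way.

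**Figure D5:**
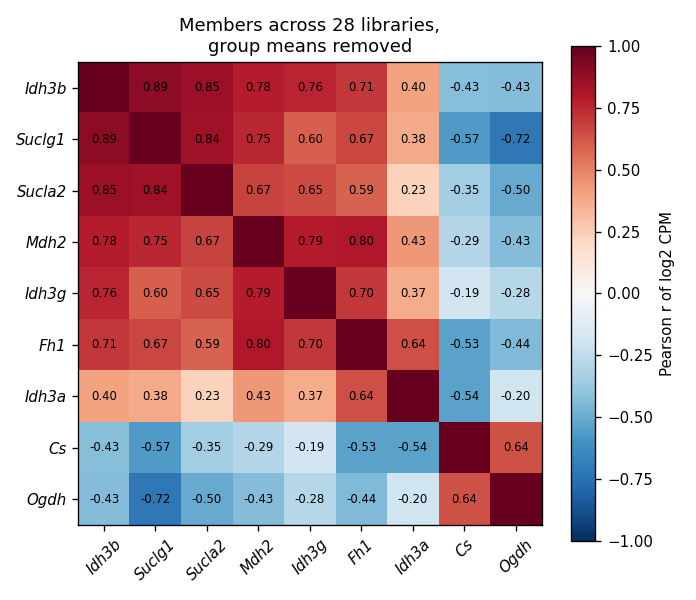
The matrix gives Pearson correlations (colour scale from -1 to 1) of log2 CPM between 9 TCA cycle genes over 28 libraries after the mean of each group was removed. Idh3b, Suclg1, Sucla2, Mdh2, Idh3g and Fh1 form a block of positive values, while Cs and Ogdh are positive with each other (0.64) and negative with the rest.

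The genes whose within-group pattern was most like the mean of the 9 members, among 11114 genes ranked over the 28 libraries, were Dld (r = 0.85), Clybl (0.85), Ndufa9 (0.84), Atp5j (0.84) and Ndufv1 (0.83). Dld is the shared E3 component of 2-oxo acid dehydrogenase complexes, Ndufa9 and Ndufv1 are subunits of respiratory complex I and Atp5j is a subunit of ATP synthase. In males their log2 fold changes were 0.39, 0.57, 0.36, 0.42 and 0.48 in that order, and each of these genes was called higher. Among SIRT6-tg mice of 1 sex, 18 relations between Sirt6 and a member over 7 mice were computed, and in exact permutation tests none had an adjusted p under 0.05. The lowest adjusted Pearson p, 0.361, was shared by Suclg1, Sucla2 and Ogdh in females. Suclg1 had Pearson's r = 0.81 (exact permutation p = 0.0272) and Spearman's rho = 0.82 (exact permutation p = 0.0341, adjusted p = 0.307), and r = 0.63 without the 2 mice farthest from the median Sirt6 level. Idh3a in males had the same rho. Sucla2 in females had r = 0.77 and rho = 0.43, and r = 0.66 without the 2 farthest mice. Ogdh in females had r = -0.72 and rho = -0.75, and r = -0.94 without them.

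Of 8 other enzyme genes of the cycle, 6 rose in males and none fell, with a median log2 fold change of 0.35. They were Dlst, Dld, Suclg2, Sdha, Sdhc and Sdhd, which encode the E2 and E3 components of 2-oxoglutarate dehydrogenase, the GDP-forming ligase subunit and 3 subunits of succinate dehydrogenase. The study showed Sdhb, Sdhc and Sdhd, and the cytosolic Idh1, among its TCA genes picked on these male libraries, so these are not independent evidence either. Sdhd, a membrane anchor, had the largest log2 fold change of those called, 0.49 (SE 0.115, adjusted p = 0.00222, edgeR). Sdhb had 0.51 (adjusted p = 0.0586, edgeR) and Idh2, the NADP-dependent isocitrate dehydrogenase, 0.10 (adjusted p = 0.498, edgeR). Thus Dlst, which works in 1 complex with Ogdh, was called at 0.26 (adjusted p = 0.017, edgeR), but the Ogdh to Dlst ratio did not differ beyond its spread (difference -0.14, exact permutation p = 0.185, adjusted p = 0.351).

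At the entry of pyruvate 4 of 13 genes rose, Pdhb, Pdhx, Mpc1 and Pdk1, and 2 fell, Pdk3 and Pdp1. Pdhb and Pdhx belong to pyruvate dehydrogenase, Mpc1 to the mitochondrial pyruvate carrier, Pdk1 and Pdk3 are kinases that inactivate the complex, and Pdp1 is a phosphatase that activates it. Pdk1 had a log2 fold change of 0.58 (adjusted p = 0.00145, edgeR), Pdk3 of -1.43 (adjusted p = 0.000102, edgeR) and Pdp1 of -0.94 (adjusted p = 0.000189, edgeR). The 2 that fell were low, with means of 1.38 CPM in male WT and 0.509 in male SIRT6-tg mice for Pdk3, and 1.90 and 0.987 for Pdp1. Pdk1 was at 94.7 and 142 CPM. Pdp2, a more abundant phosphatase gene at 44.2 and 55.1 CPM, had a log2 fold change of 0.32 (adjusted p = 0.0888, edgeR). Of 12 cytosolic counterparts and carriers 9 rose and none fell (median 0.42), among them Idh1 at 0.45 (adjusted p = 0.000193, edgeR), the citrate carrier Slc25a1 at 0.41 (adjusted p = 0.00172, edgeR) and malic enzyme Me1 at 0.85 (adjusted p = 6.52e-05, edgeR). Of 21 respiratory chain genes 14 rose and none fell (median 0.48). Of 13 assembly factors and regulators 5 rose, Sdhaf3, Lipt1, Lias, Ppargc1b and Tfam, and none fell (median 0.35). Gabpa, whose protein binds the ETS core, was at 0.25 and was not called (adjusted p = 0.163, edgeR). The other regulators not called were Ppara at 0.38, Esrra at 0.27, Nrf1 at 0.09 and Ppargc1a at -0.03. A part of any regulator in the TCA cycle results was not tested. The list counts moved with the scaling as those of the members did. With library size alone none of the 8 other enzymes of the cycle, 1 of the 12 cytosolic counterparts and carriers (against 9 with TMM) and none of the 21 respiratory chain genes was called higher, and with the hepatocyte scaling the numbers were 0, 1 and 0. The fold changes of all 21 respiratory chain genes were positive under each of the 5 scalings, and those of 5 of the 8 other enzymes of the cycle were positive under the last 2. The T cell, macrophage and stellate markers were all called lower under each of the 5.

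In females no gene of these lists was called, and the medians were 0.013 for the 8 other enzymes of the cycle and -0.03 for the respiratory chain. No T cell, macrophage, stellate, B cell, endothelial or cholangiocyte marker was called between the female genotypes, and the summed T cell markers ranged from 6.25 to 20.7 CPM in WT and from 6.79 to 15.7 CPM in SIRT6-tg females. Macrophage markers summed to 434 to 869 and 342 to 836 CPM and stellate markers to 121 to 184 and 119 to 174 CPM. The sex difference of the SIRT6-tg effect, which was called for Idh3b and Fh1, was also called for 7 of 10 T cell, 3 of 10 macrophage, 3 of 6 stellate and 1 of 6 B cell markers, all with the lower log2 fold change in males. That interaction was called for 3 of 15 secreted hepatocyte genes and 2 of 21 respiratory chain genes, with the higher log2 fold change in males. Between the WT sexes all 10 T cell, 2 of 10 macrophage and 2 of 6 stellate markers were higher in males, and 1 of 5 cholangiocyte markers was lower. Of the 15 secreted hepatocyte genes 6 were lower in WT males and 0 higher. Their TMM-scaled sum ranged from 128847 to 166840 CPM in male and from 187500 to 244958 CPM in female WT mice. The reference of the hepatocyte scaling thus itself differed between the WT sexes. The part of these markers in the TCA cycle results was not tested.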

How the data were processed

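The data were counts per gene of single-end reads from NEBNext Ultra libraries of 28 mouse livers. The authors mapped reads with STAR 2.5.0a (mm10), assigned the uniquely mapped ones to genes of Gencode vM12 by HTSeq-count, and deposited raw counts without normalization. Columns were matched to samples by name, with 0 left over, and groups were taken from the labels. No pair of libraries agreed within sampling noise.

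Here genes with a mean of at least 0.5 counts after scaling with size factors were kept (21583), scaled with TMM factors, and compared in edgeR 4.0.16 (R 4.3.3) by its robust quasi-likelihood test (all 4 groups in 1 fit, no covariates, Benjamini-Hochberg over all genes, threshold 0.05). Levels are CPM, and correlations used log2 CPM with a prior count of 2. The depth was 18758863 to 35393069 counts per library. The p-values rest on the spread between mice within groups of 7. In edgeR this spread was estimated over all 4 groups together and moderated across genes, so a library of 1 sex can alter a call in the other. Ratios were compared by exact two-sided permutation with scipy 1.17.1. Symbols, positions and exon lengths came from Gencode vM21 (GRCm38), copies from BLAST 2.17.0, and promoters from RefSeq. Alternatives were RLE, upper-quartile, library size and hepatocyte scaling, filterByExpr, no filter, DESeq2 1.42.0, replicate blocks, separate sexes, each library left out in turn, 0.5 added to each count for ratios and, after seeing the data, removal of a trend on exon length. The fit was tested on simulated data. The members and the lists were chosen with earlier results of these data known. Named genes were the members, genes of the lists, Sirt6 and the 5 genes most correlated with the members. The strand setting of the counting is not given in the sources used here. Of the lists, 1 gene is not reported here.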

Additional observations from a re-analysis of the deposited data

Results flagged for a closer look

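In a group of 7 mice a library stood apart from the others in 2 of 36 combinations of member and group, by the gap to its nearest neighbour relative to the range of the group, where chance gives about 1 in 20. Idh3a was at 27.91 CPM in male WT replicate 2, with the next lowest mouse at 34.98, a gap of 0.607 of the range. Without this library the log2 Idh3b to Idh3a ratio differed between male SIRT6-tg and WT mice by 0.38 with an adjusted p of 0.00932 (exact permutation), against 0.33 and 0.0684 with it. Sucla2 was at 171.4 CPM in male WT replicate 1, with the next highest at 146.4, a gap of 0.655 of the range. Without this library the difference between the sexes in the SIRT6-tg effect on Sucla2 was 0.41 with an adjusted p of 0.0457 (edgeR), against 0.39 and 0.0732 with it. Each library was picked for an extreme WT value, which fixed the direction of these changes in advance. The lower p-values are therefore no added support for either difference.

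The interaction test in edgeR called a difference between males and females in the SIRT6-tg effect for Idh3b (log2 difference 0.5076) and Fh1 (0.6598). It called 5.05% of all genes tested, 1.2% with the higher value in males. The Fh1 call (adjusted p = 0.0471, edgeR) was lost when any of 20 of the 28 libraries was left out. Under 6 of 9 other settings the Fh1 call was lost as well, and the Idh3b call under 2. Idh3b was higher in 7 of 7 male SIRT6-tg mice than in any male WT mouse and in 1 of 7 female SIRT6-tg mice than in any female WT mouse. For Fh1 the numbers were 4 of 7 in males and 0 of 7 in females.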

How the results depend on the processing

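The number of members called in males was 5 with RLE factors, filterByExpr, no filter, DESeq2 or a replicate block. It was 4 with upper-quartile factors or each sex fitted separately (Mdh2 lost) and 6 with the trend on exon length removed. With library size alone it was 1 and with the scaling to secreted hepatocyte genes 0. Over all genes, 2090 were called higher in males with TMM, 2797 with the length trend removed, 210 with library size alone and 152 with the hepatocyte scaling. The count for the difference between the sexes was 1 with RLE factors, upper-quartile factors, no filter or a replicate block, and 0 with library size alone or the hepatocyte scaling, while filterByExpr, DESeq2 and the length trend left it at 2. Between WT sexes 1 member, Mdh2, was called with library size alone and 1 with the hepatocyte scaling. Of 21583 genes tested, 3657 and 5166 were called higher in WT males under these 2 scalings. Leaving out 1 library at a time gave counts of 4 to 6 in males, 0 in females, 1 to 3 for the difference between the sexes, 0 between WT sexes and 3 to 6 between SIRT6-tg sexes, and 2 to 3 of the 32 ratios. The labels do not say whether the replicate numbers pair the mice. Same-numbered WT and SIRT6-tg mice of a sex correlated at -0.283 to 0.271 in their deviations from the group means, which cannot exclude pairing. With the replicate number as a block, the Fh1 difference between the sexes was 0.67 (adjusted p = 0.0748, edgeR), and the other counts were 5 in males, 0 in females, 0 between WT and 4 between SIRT6-tg sexes. Fold changes that turned sign under another setting were not called under either, except that of Mdh2 in males, which was called with TMM. In males they were -0.11 for Cs, -0.079 for Idh3a and -0.15 for Ogdh with library size alone, and -0.15 for Cs, -0.11 for Idh3a, -0.18 for Ogdh and -0.028 for Mdh2 with the hepatocyte scaling, which also gave 0.10 for Ogdh in females. For the difference between the sexes they were -0.25 for Cs, -0.14 for Ogdh and -0.034 for Mdh2 with library size alone, -0.38 for Cs, -0.14 for Idh3g, -0.29 for Ogdh, -0.068 for Sucla2 and -0.19 for Mdh2 with the hepatocyte scaling, -0.00741, -0.033 and -0.0075 for Cs with RLE factors, upper-quartile factors and DESeq2, and 0.0080 for Idh3a with the length trend removed. Between WT sexes library size alone gave 0.021 for Idh3a, 0.070 for Idh3b, 0.088 for Idh3g, 0.12 for Ogdh, 0.12 for Suclg1, 0.039 for Sucla2 and 0.087 for Fh1, and the hepatocyte scaling 0.14 for Idh3a, 0.18 for Idh3b, 0.20 for Idh3g, 0.21 for Ogdh, 0.24 for Suclg1, 0.15 for Sucla2 and 0.20 for Fh1. Between SIRT6-tg sexes Ogdh was at -0.00389 with upper-quartile factors, -0.029 with library size alone and -0.078 with the hepatocyte scaling, which put Cs at -0.0019. Leaving out 1 library gave ranges across 0 of -0.031 to 0.062 for Idh3b, -0.082 to 0.050 for Ogdh, -0.077 to 0.12 for Suclg1 and -0.017 to 0.071 for Mdh2 in females, -0.011 to 0.10 for Cs and -0.10 to 0.029 for Idh3a for the difference between the sexes, -0.12 to 0.010 for Ogdh, -0.13 to 0.026 for Suclg1 and -0.18 to 0.0051 for Fh1 between WT sexes and -0.0022 to 0.13 for Ogdh between SIRT6-tg sexes. Of the log2 ratios, none of them called, the same held for -0.074 to 0.00077 for Sucla2/Suclg1 in males, -0.011 to 0.10 for Sucla2/Suclg1, -0.019 to 0.084 for Mdh2/Mdh1, -0.069 to 0.073 for Sucla2/Suclg2 and -0.12 to 0.0066 for Ogdh/Dlst in females, -0.010 to 0.081 for Idh3b/Idh3a, -0.0010 to 0.10 for Idh3g/Idh3a and -0.091 to 0.011 for Idh3a/Idh2 between WT sexes and -0.10 to 0.018 for Mdh2/Mdh1 between SIRT6-tg sexes. Adding 0.5 to each count left 2 ratios called. The causes of these changes were not tested. The lowest count of a member was 631, and p-values rest on 7 mice a group.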
